A study of Mus musculus with 285 samples.

Results

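F-box and TRIM genes encode the parts of ubiquitin ligases that choose which protein is marked for breakdown. Their members here were all mouse genes whose symbol begins with Fbxo, Fbxl, Fbxw or Trim and a digit, without the 2 muscle ligase genes Fbxo32 and Trim63, and measured on no fewer than 80% of the arrays. The rule gave 72 genes out of 10817 named mouse genes: 18 Fbxo, 8 Fbxl, 10 Fbxw and 36 Trim genes. They were read by 75 probes, each with a value on every array, so the coverage rule removed none. Fbxo32 and Trim63 were not analysed here. Another 5 probes whose symbol fits the rule had no mouse entry under that gene number and were left out.

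The arrays measured skeletal muscle RNA of 285 F2 mice, females and males, bred from F1 parents. The labels' keywords name the strains C57B1/J6 and C3H/HeJ. Every mouse was raised on chow (4% fat) up to an age of 8 weeks, then fed a Western diet (42% fat, 0.15% cholesterol) over 12 weeks. Muscle was taken at 20 weeks, once food had been withheld for 12 hours. RNA of each mouse carried Cy3 and was set against a pool of equal parts of all the samples in Cy5. The labels give neither the muscle taken nor the sex or genotype of a single mouse, so the mice formed 1 group. Sex was not inferred from the values either, and no fit took it into account. Every mouse was fasted, and no fed mouse was there to compare with. All values are log2 ratios of a mouse over the pool. The relations tested run across mice: a slope is the change in a member's log2 ratio for a rise of 1 SD in another gene or in the score of a gene list.

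An F-box protein binds its substrate with one end and the adaptor Skp1 with its F-box, which ties it to the cullin Cul1 and the ring protein Rbx1 in an SCF ligase. The letters after Fbx name the rest of the protein: leucine-rich repeats in Fbxl, WD40 repeats in Fbxw, other folds in Fbxo. Most TRIM proteins carry their own RING domain and act without a cullin. In muscle, fasting, glucocorticoids and the FoxO factors are known to raise some of these ligases, and Cebpd, a C/EBP transcription factor, is one of the genes that rises with them. Many Trim genes are also known as targets of interferon.

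The ratios had a median SD within an array of 0.29 log2 (range 0.18 to 0.62), and precision is limited by how many arrays there are. The median r between arrays was 0.0744 across features and the lowest was -0.743, with 2.34% of pairs below -0.3. A ratio to a pool gives no level, so the labelled tissue could not be checked against marker levels, and levels of different genes are not compared. One axis, the first principal component, carried 15.2% of the variance of all features, and the first 5 carried 36.9%. Members followed this axis as other features did, with a median absolute r of 0.332 against 0.333 for all features. Cebpd and several members also ran along the mouse number. The sample records are listed in another order, which was not tested. Between 31.2% and 56.2% of all features passed the test against the 5 predictors used.

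Most members varied little. The median SD among mice was 0.21 log2 for the members, from 0.092 for Trim44 to 0.69 for Fbxw2, against 0.21 for all named genes, and 38 of the 72 lay above the median of the named genes. Only Fbxw2 and Trim30d passed the 95th percentile of named genes, 0.56. Fbxw2, an F-box gene with WD40 repeats, ran from -1.98 through a median of -0.47 to 3.07, and 84 mice were at least 2-fold from the pool. Its highest value was 1 mouse, with the next at 1.46, and its values stepped down along the mouse number, from a median of -0.03 in numbers 171 to 210 to -1.05 in numbers 251 to 290 and -1.25 in numbers 331 to 362. Trim30d, one of the interferon-linked Trim30 genes, ran from -2.10 through 0.12 to 1.35, with 30 mice at least 2-fold away, and its lowest mouse stood apart from the next, at -1.41. Trim7, whose protein binds the glycogen primer glycogenin, ran from -1.61 through -0.09 to 1.24. Trim2, a ligase best known from neurons, where it acts on neurofilament light chain, ran from -0.70 through 0.26 to 1.30. Trim30a ran from -0.93 through 0.13 to 1.65. The SD of some members rested on few mice. Trim31 had an SD of 0.43 with 1 mouse at the lower bound of the deposited values, -6.64, and of 0.18 without it. Trim61 had an SD of 0.43, with its 2 highest mice at 3.03 and 2.91 and its 5th and 95th percentiles at -0.50 and 0.61. Fbxo16 ran from -1.91 through 0.10 to 1.93 with an SD of 0.45.

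**Figure D1:**
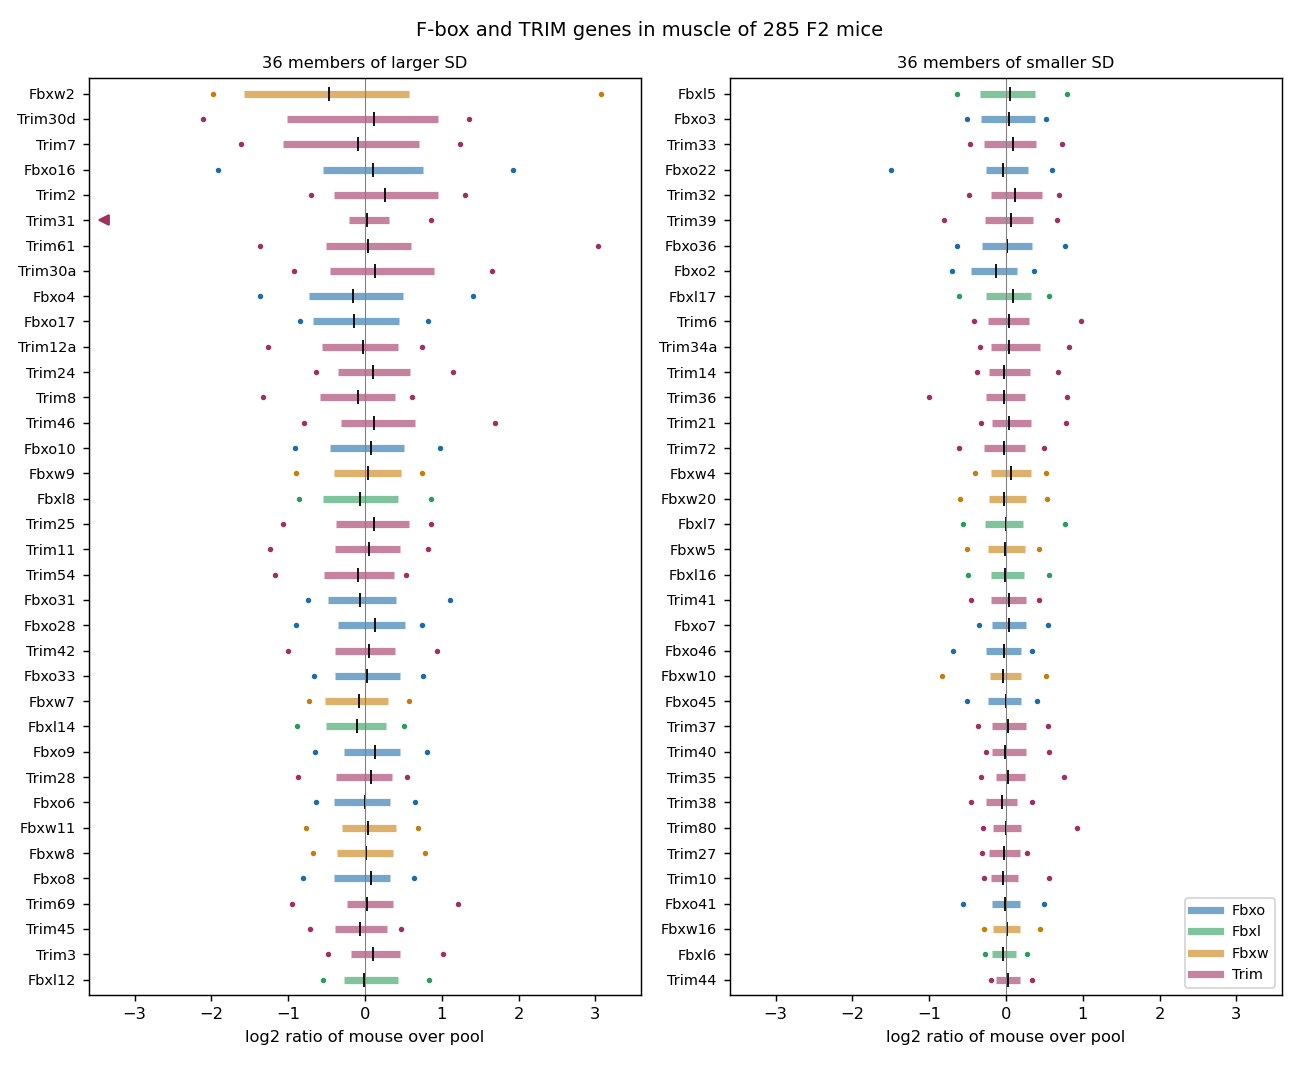
Log2 ratio of mouse over pool for the 72 members, ordered by SD among 285 mice in 2 panels of 36. Bars run from the 5th to the 95th percentile, ticks mark the median and dots the lowest and highest mouse; the arrow marks the lowest mouse of Trim31 at -6.64. Fbxw2, Trim30d and Trim7 have the longest bars.

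Along Cebpd, some members rose, some fell and the rest did not pass the test. Of the 72, 45 passed the test (limma slope over 285 mice, Benjamini-Hochberg over all features, adjusted p under 0.05), 23 upward and 22 downward. Over all features 52.4% passed, 20.2% upward and 32.2% downward, so the members' share of 62.5% stands near the background. By direction the members' shares were 31.9% upward and 30.6% downward, and their differences from all features were not tested. Their median r with Cebpd was -0.027, against -0.042 over all features. With an absolute r of at least 0.3 as well, 6 members remained, 4 upward and 2 downward, or 8.33% against 12.5% of all features (6.01% upward and 6.49% downward). Cebpd itself ran from -1.40 through 0.11 to 1.19 with an SD of 0.49.

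Trim2 had the steepest rise with Cebpd of any member, 0.24 ± 0.022 log2 per SD (SE, n = 285, limma adjusted p = 2.33e-21). Its Pearson r was 0.546 and its Spearman rho 0.538 (permutation test, two-sided, 100000 shuffles, p = 1e-05 for each, the smallest they can give), and r was 0.532 without the 2 mice farthest from the Cebpd median. Mice low in Cebpd were mostly low in Trim2, though the clouds overlapped throughout. Trim2 also rose along the mouse number, with r = 0.70: its median was -0.17 in numbers 91 to 130 and 0.78 in numbers 251 to 290. Within the lower-numbered 143 mice the slope was 0.13 (adjusted p = 8.57e-07) and within the higher-numbered 142 it was 0.14 (adjusted p = 5.04e-06). Trim2 further correlated at 0.605 with a score of matrix genes and at 0.520 with a score of tendon genes, whose part in the slope was not tested beyond the fit with tendon and 4 other tissue scores as covariates, where it was 0.18. Its r with the first component was 0.774, and its slope was 0.11 with that component as a covariate and 0.059 with the first 5. In bulk muscle, more cells of a type and more RNA per cell cannot be told apart.

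Fbxo45 fell with Cebpd. Its protein pairs with the RING protein Mycbp2 and is known for its part in synapse formation. It varied little, from -0.51 through -0.003 to 0.40, and its slope was -0.048 ± 0.0077 log2 per SD (limma adjusted p = 1.79e-08) with r = -0.351, and -0.354 without the 2 mice farthest from the Cebpd median. The slope was -0.044 among the lower-numbered mice and -0.051 among the higher-numbered ones. Of the 12 named members called along Cebpd, Trim2 and Fbxo45 kept their call under all 14 alternatives run, and the others lost it under at least 2.

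The other 4 of the 6 depended more on how the data were handled. Trim25, the ligase that activates the viral RNA sensor RIG-I, ran from -1.06 through 0.12 to 0.86 and rose by 0.11 ± 0.016 per SD (adjusted p = 1.4e-09, r = 0.372). It lost its call with the trend along the mouse number removed, with a slope of 0.023 (adjusted p = 0.361). Fbxo28, an F-box gene that acts on the oncoprotein Myc, ran from -0.90 through 0.13 to 0.75 and rose by 0.088 ± 0.015 (adjusted p = 1.96e-07, r = 0.325). With the first component as a covariate its slope was -0.0061. Trim28, the corepressor of KRAB zinc finger proteins, rose by 0.073 ± 0.013 (adjusted p = 3.87e-07). Its values fell into a lower cluster of 23 mice and a higher one of 262, with r = -0.0244 (permutation p = 0.911) and 0.263 (permutation p = 1e-05) inside them. Fbxw7, the F-box protein that clears cyclin E, Myc and Notch, ran from -0.73 through -0.08 to 0.58 and fell by 0.075 ± 0.014 (adjusted p = 1.33e-06, r = -0.304). Its slope among the higher-numbered mice was -0.0029 (adjusted p = 0.936).

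Cebpd had 2 probes, and they did not track each other closely (r = 0.398). The probe of larger SD, 0.81, correlated at 0.611 with the other fasting genes and at 0.188 with the first component. The probe of smaller SD, 0.32, correlated at 0.519 with the other fasting genes and at 0.846 with the first component. Along the first probe 14 members passed the test, where 21.4% of features did, and along the second 52 did, where 77.0% of features did. The fit along the first probe also read every other gene with several probes by its probe of largest SD. Among the members this touched Fbxl17, Fbxo41 and Trim12a. In the fit along the second probe those genes kept their probe means. The absolute r of at least 0.3 was met by 3 members along the probe of larger SD, against 3.54% of all features: Trim2 rising, and Fbxo45 and Trim7 falling. Along the probe of smaller SD it was met by 38 members, 20 upward and 18 downward, against 47.5% of all features. Trim7 fell along the mean of both probes by 0.15 ± 0.031 per SD (adjusted p = 9.62e-06, r = -0.279). Trim2 correlated at 0.370 and 0.740 with the probe of larger and of smaller SD, and Fbxo45 at -0.309 and -0.296.

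Promoters of the members were searched for a C/EBP pattern. RefSeq promoter entries (build GRCm38.p6) existed for 57 of the 72 members, and the 250 bases before the start site were searched on both strands for TTNNGCAA. It was in 8 members, 14%, against 10.8% of all 27025 genes with an entry. Trim2 had it in 1 of its 5 entries, in the 120-base window chr3:84270813-84270932 on the minus strand, 85 bases before that start site. Trim7 had it in chr11:48825890-48826009 on the plus strand, with the pattern on the opposite strand to the one printed. Both are shown because one rose and the other fell with Cebpd; capitals mark the match.
Trim2: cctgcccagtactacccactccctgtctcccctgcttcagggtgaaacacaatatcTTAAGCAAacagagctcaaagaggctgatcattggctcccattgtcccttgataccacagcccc
Trim7: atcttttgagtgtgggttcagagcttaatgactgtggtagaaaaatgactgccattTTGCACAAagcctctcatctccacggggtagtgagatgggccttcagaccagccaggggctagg
Of the 8, Fbxo28 and Trim2 rose along Cebpd, Fbxo4, Fbxw2, Trim12a, Trim45 and Trim7 fell, and Trim27 did not pass (slope -0.0033, adjusted p = 0.726). The FoxO pattern GTAAACA was in 0 of the 57 against 3.54% of all genes, the glucocorticoid response element in 0 against 0.074%, and the E-box CACGTG in 4 against 6.86%. No member held more than 1 of the 5 patterns searched. A match in such a window is only a run of letters.

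**Figure D2:**
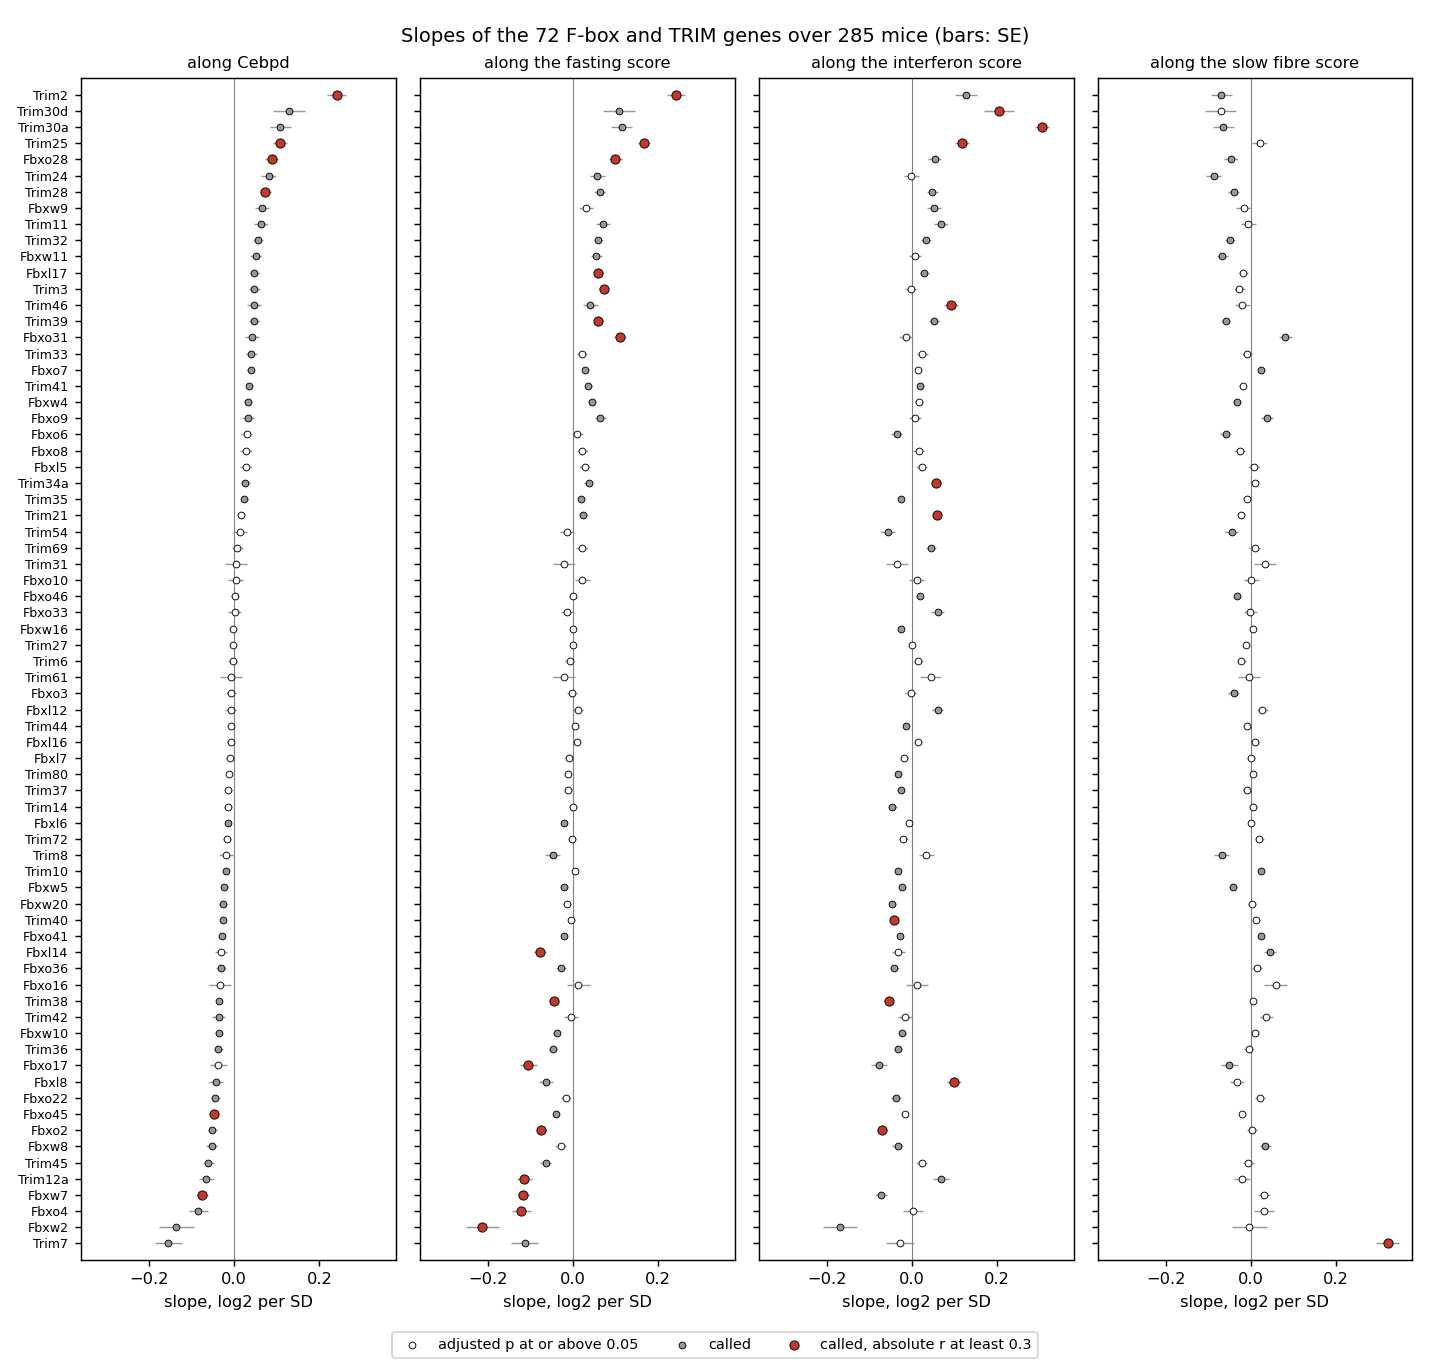
Slope in log2 per SD with its SE for each of the 72 members along Cebpd, the fasting score, the interferon score and the slow fibre score over 285 mice, in the order of the slopes along Cebpd. White points did not pass the test, grey points passed, and red points passed with an absolute r of at least 0.3; Trim2 tops the first panel at 0.24 and Trim7 stands at 0.32 in the last.

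A score of 22 measured genes known to answer to fasting or glucocorticoids, Cebpd among them, gave a broader view than 1 gene. The score is the mean z value of its genes, and it ranks the mice only relative to each other. It correlated with Cebpd at 0.727, and at 0.673 with Cebpd left out of it. Cebpd had an r of 0.457 with the mouse number, and the score had a higher one of 0.554. Of its genes, Fkbp5, Sgk1, Cdkn1a and Foxo1 followed Cebpd with r from 0.521 to 0.646, while Pdk4, Foxo3 and Cebpb did not pass the test. Zbtb16, a glucocorticoid-induced gene, fell along Cebpd (r = -0.197, limma adjusted p = 0.00268). Along the score 41 members passed, 22 upward and 19 downward, against 50.2% of all features (21.1% upward and 29.2% downward), and 15 had an absolute r of at least 0.3, 7 upward and 8 downward, or 20.8% against 16% of all features (7.61% upward and 8.43% downward).

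Trim25 had the highest r with the fasting score among the 72 members. It rose by 0.17 ± 0.014 log2 per SD (limma adjusted p = 2.07e-24), with r = 0.577, rho = 0.612 and r = 0.571 without the 2 mice farthest from the score's median. The slope was 0.15 among the lower-numbered mice, 0.070 among the higher-numbered mice, and 0.10 with the trend along the mouse number removed (adjusted p = 8.58e-06). Trim25 also correlated at 0.549 with a score of endothelial genes, which moved with the fasting score only weakly (r = 0.232); its part in the slope was not tested. Trim2 rose by 0.24 ± 0.022 (adjusted p = 7.24e-22, r = 0.549), and by 0.058 with the trend removed (adjusted p = 0.0649).

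Fbxo31, an F-box gene that clears cyclin D1 after DNA damage and is known among the ligases raised in wasting muscle, had an r of 0.401 with the score and of 0.149 with Cebpd. It ran from -0.75 through -0.06 to 1.11 and rose by 0.11 ± 0.015 per SD of the score (adjusted p = 2.87e-11). Along Cebpd its slope was 0.041 ± 0.016 (adjusted p = 0.0242). The difference between both slopes was not tested. Fbxo31 had an r of -0.0323 with the mouse number and of -0.0455 with the first component. Its medians were still not level along the mouse number, at -0.20 in numbers 51 to 89, 0.08 in 171 to 210 and -0.19 in 331 to 362, and its slope was larger, 0.18, with the smooth trend removed (adjusted p = 1.54e-15). With the first 5 components as covariates it was 0.21 (adjusted p = 3.27e-30).

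Fbxw7 fell by 0.12 ± 0.013 per SD of the score (adjusted p = 8.05e-16, r = -0.474), with slopes of -0.066 and -0.062 among the lower- and higher-numbered mice. Trim25, Fbxw7 and Fbxo31 kept their call along the score under all 13 alternatives run, as no other named member did. Fbxw2 fell by 0.21 ± 0.039 (adjusted p = 6.23e-07), but its slope was 0.021 among the lower-numbered and 0.062 among the higher-numbered mice, so it turned in sign within each set. Trim12a, a mouse relative of the human TRIM5, fell by 0.11 ± 0.017 (r = -0.361) and Fbxl14, whose protein clears Snail, by 0.077 ± 0.014 (r = -0.314). Trim3, which shares the NHL repeats of Trim2, rose by 0.072 ± 0.012 (r = 0.335), and Fbxo28 by 0.099 ± 0.015 (r = 0.366).

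**Figure D3:**
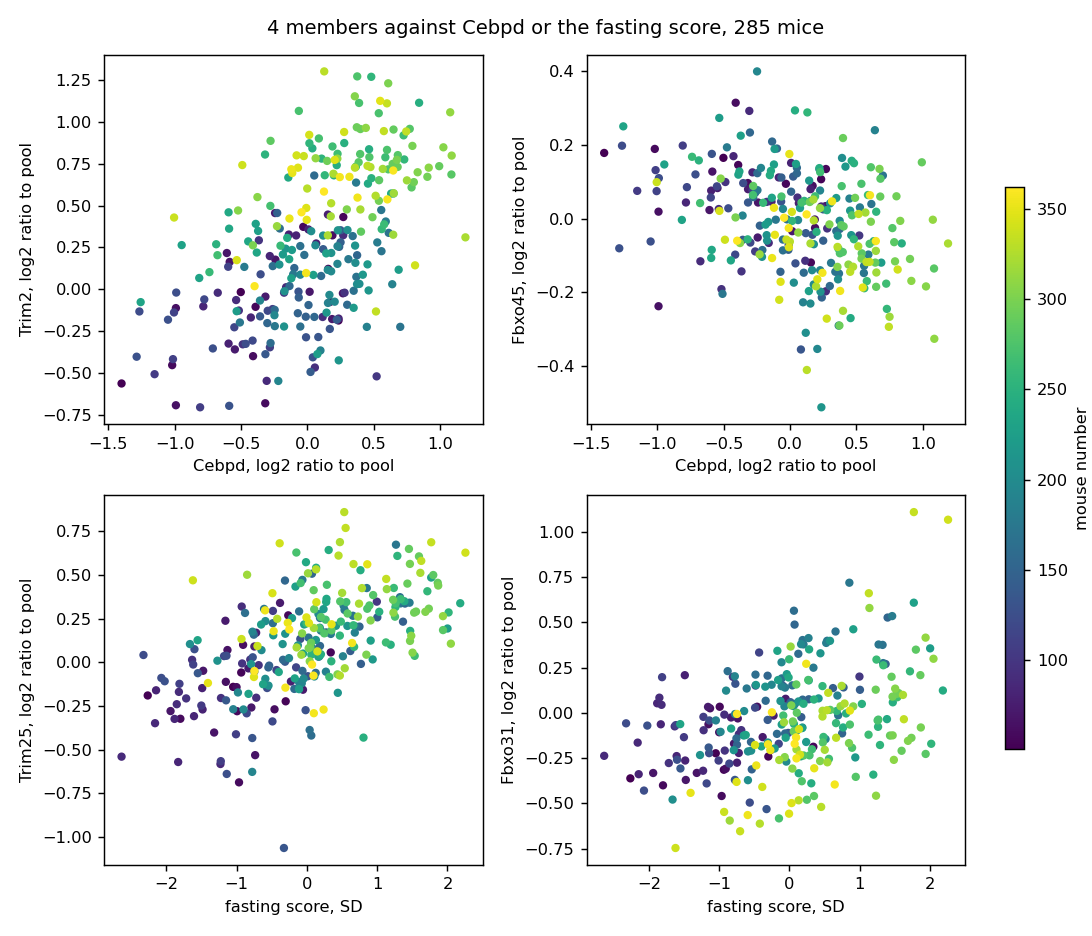
Each point is 1 of 285 mice, coloured by its mouse number. Trim2 and Fbxo45 are plotted against Cebpd in log2 ratio to the pool, and Trim25 and Fbxo31 against the fasting score in SD; r is 0.546, -0.351, 0.577 and 0.401, and the high-numbered mice lie high in Trim2 and Trim25.

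By role, the muscle wasting and muscle structure genes moved in both directions. Of 11 such genes listed, 5 were measured: Fbxo31, Fbxw7, Trim32, Trim54 and Trim72. Along Cebpd 2 rose and 1 fell, with a median r of 0.051, where 20.2% of all features rose and 32.2% fell. Along the fasting score 2 rose and 1 fell, with a median r of -0.018, where 21.1% of all features rose and 29.2% fell. Trim32, the NHL ligase mutated in a limb-girdle dystrophy, ran from -0.48 through 0.11 to 0.69 and rose along Cebpd by 0.056 ± 0.011 (adjusted p = 1.23e-05). Its slope was -0.0022 with the first component as a covariate, and it correlated with that component at 0.664. Trim54, also called MuRF3, ran from -1.17 through -0.10 to 0.54, with a slope along Cebpd of 0.014 ± 0.016 (adjusted p = 0.486). It passed the test under 3 alternatives, with slopes of 0.10 among the lower-numbered mice, 0.051 with the trend removed and 0.040 with 5 tissue scores as covariates, and its slope was -0.023 along the Cebpd probe of smaller SD. Trim72, or MG53, which seals torn muscle membrane, ran from -0.61 through -0.02 to 0.49, with a slope of -0.017 ± 0.0097 (adjusted p = 0.134).

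Of 5 measured cell cycle members, Fbxo4, Fbxw8, Trim36 and Fbxw5 fell along Cebpd, by 0.084, 0.053, 0.037 and 0.023 per SD, where 32.2% of all features fell. Their r was -0.214, -0.235, -0.221 and -0.152, so none had an absolute r of at least 0.3. Trim37 had a slope of -0.014 (limma adjusted p = 0.152). Of 4 measured chromatin members, Trim24, Trim28 and Trim33 rose by 0.081, 0.073 and 0.040 and Trim27 did not pass, where 20.2% of all features rose. Trim24 and Trim33 had r of 0.264 and 0.196. The difference between both groups was not tested. Trim24, Trim28 and Trim33 are the transcriptional intermediary factors of the family. Of the 3 measured F-box genes that bind sugar chains on misfolded glycoproteins, Fbxo2 fell along Cebpd by 0.052 ± 0.011 (adjusted p = 2.14e-05), while Fbxo6 and Fbxo17 had slopes of 0.030 (adjusted p = 0.051) and -0.038 (adjusted p = 0.105). Along the fasting score Fbxo2 fell by 0.074 and Fbxo17 by 0.11, where 29.2% of all features fell. The slope of Fbxo2 turned to 0.019 among the lower-numbered mice and to 0.020 with the first 5 components as covariates. Fbxw11, the second β-TrCP and a ligase of the clock protein Per, rose along Cebpd by 0.051 ± 0.013 (adjusted p = 0.000411). These groups are described by their counts, since they are small and were chosen with earlier results known. The single slopes of the cell cycle genes, Trim24, Trim27, Trim33 and Fbxw11 were not followed under each alternative.

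The SCF partners that F-box proteins work with moved in both directions. Of 23 measured partners, 3 rose and 6 fell along Cebpd, with a median r of -0.0019, where 20.2% of all features rose and 32.2% fell. Rbx1, the ring subunit, fell by 0.12 ± 0.014 per SD (adjusted p = 3.23e-15, r = -0.469), Nedd8, the modifier that switches cullins on, by 0.061 ± 0.0084 (adjusted p = 6.1e-11), and Cops4, a subunit of the signalosome that takes Nedd8 off, by 0.054 ± 0.0097 (adjusted p = 5.74e-07). Skp1 rose by 0.031 ± 0.0096 (adjusted p = 0.00413), and Cul1 had a slope of 0.028 (adjusted p = 0.0606). Another 8 measured genes of the ubiquitin system are linked to fasting, all but the deubiquitinase Usp14 parts of ligases. Along Cebpd 4 of them rose, Usp14 included, and 3 fell, where 20.2% of all features rose and 32.2% fell. An absolute r of at least 0.3 was met by 2 that rose and 1 that fell, against 6.01% and 6.49% of all features. Socs3 rose by 0.17 ± 0.031 and Cblb, which targets the insulin receptor substrate, by 0.058 ± 0.0095. Stub1, the chaperone-linked ligase, fell by 0.055 ± 0.0069 (adjusted p = 1.58e-12, r = -0.430). The slopes of the partners and of these genes were not followed under the alternatives run for the members.

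The highest r of a member with any of the 5 predictors was that of Trim30a with interferon genes. A score of 25 measured interferon genes, none of them a member, hardly moved with Cebpd (r = 0.008). Along it 44 members passed, 21 upward and 23 downward, against 56.2% of all features (20.8% upward and 35.4% downward). An absolute r of at least 0.3 was met by 10, 7 upward and 3 downward, or 13.9% against 15.3% of all features (5.38% upward and 9.89% downward). Trim30a, an interferon-induced brake on Toll-like receptor signalling, rose by 0.31 ± 0.017 log2 per SD (adjusted p = 1.92e-45), with r = 0.728, rho = 0.770 and r = 0.752 without the 2 mice farthest from the score's median. Its slope was 0.26 among the lower-numbered and 0.27 among the higher-numbered mice and never below 0.22 under the 13 alternatives. Trim30d rose by 0.20 ± 0.035 (adjusted p = 1.81e-07), Trim25 by 0.12 ± 0.016 (adjusted p = 4.65e-11), and Trim21, the receptor for antibodies inside cells, by 0.059 ± 0.0092 (adjusted p = 1.29e-08). The r of Trim21 was 0.354, and 0.284 without the 2 farthest mice, and its rho over all mice was 0.239. The F-box gene Fbxl8 rose by 0.0995 ± 0.016 (adjusted p = 3.47e-08, r = 0.342). Trim38, which dampens innate signalling, fell by 0.055 ± 0.0068 (adjusted p = 2.19e-12). Fbxo2 fell by 0.069 ± 0.011 (limma adjusted p = 5.98e-09) and Trim40 by 0.041 ± 0.0077 (limma adjusted p = 1.26e-06). Fbxo2 lost its call under 3 of the 13 alternatives, and Trim40 lost it under 2 and turned in sign under 1. Their r with the first component was -0.661 and -0.669. Of 10 measured members of an innate immunity list, 6 rose and 3 fell along the score, with a median r of 0.264 against -0.042 over all features.

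The interferon-stimulated response element, searched on both strands as GAAA, 2 bases of any kind and GAAA again, was in 4 of the 57 member promoters, 7.02%, against 3.46% of all genes. The 4 were Fbxo7, Fbxo36, Trim30a and Trim30d. The Trim30a window chr7:104465194-104465313 and the Trim30d window chr7:104507850-104507969, both on the minus strand, are given because both genes rose along the interferon score. Both hold the pattern on the opposite strand to the one printed, 26 and 31 bases before the start site.
Trim30a: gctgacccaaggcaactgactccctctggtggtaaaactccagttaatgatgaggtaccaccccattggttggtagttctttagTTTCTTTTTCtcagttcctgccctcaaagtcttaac
Trim30d: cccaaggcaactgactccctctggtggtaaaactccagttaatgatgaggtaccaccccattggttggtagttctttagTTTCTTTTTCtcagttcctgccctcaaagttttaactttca
Both windows share a run of 109 identical bases. Fbxo36, with the same pattern, fell along the interferon score by 0.041 ± 0.011 (limma adjusted p = 0.000774, r = -0.214). Fbxo7, which also holds it, did not pass (slope 0.015, limma adjusted p = 0.116). Neither is among the 10 members of absolute r at least 0.3.

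Trim30a and Trim30d also rose along a macrophage score of 17 measured markers. Along that score 32 members passed, 11 upward and 21 downward, against 47.6% of all features (14.1% upward and 33.5% downward). An absolute r of at least 0.3 was met by 8, 5 upward and 3 downward, against 10.1% of all features (6.6% upward and 3.51% downward). The score ran from -1.83 to 2.01 and correlated with the interferon score at 0.441. Trim30a rose by 0.22 ± 0.021 per SD (adjusted p = 1.27e-20, r = 0.532) and by 0.093 with the interferon score and 3 other tissue scores as covariates. Trim30d rose by 0.21 ± 0.035 (adjusted p = 9.61e-08), Fbxl8 by 0.12 ± 0.016 (adjusted p = 8.22e-13, r = 0.429), Trim2 by 0.14 ± 0.025 and Fbxo33 by 0.079 ± 0.014. Trim10, Trim80 and Trim7 fell by 0.037, 0.038 and 0.17 per SD. The macrophage score also correlated at 0.663 with the matrix score, which Trim2 followed at 0.605, Trim30a at 0.537 and Trim30d at 0.310; the part of the matrix genes was not tested. With the interferon, slow fibre, tendon and white adipocyte scores as covariates, an absolute r of at least 0.3 was met by Fbxl8 and Fbxo9, against 5.1% of all features, and Trim2 lost its call, with a slope of 0.026.

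Trim7 rose with slow fibre genes. The score of 10 measured slow fibre genes fell into a lower cluster of 60 mice and a higher one of 225. Along it 24 members passed, 8 upward and 16 downward, against 31.2% of all features (16.1% upward and 15.1% downward). Trim7 alone had an absolute r of at least 0.3, a mark met by 5.65% of all features (2.51% upward and 3.14% downward). It met that mark under all 13 alternatives run, but was alone in only 2 of them: with the trend along the mouse number removed 5 members met it, Fbxo6, Fbxo17, Trim24 and Trim54 besides, against 3% of all features, and among the lower-numbered mice 7 did, against 11.9%. Trim7 rose by 0.32 ± 0.027 log2 per SD (adjusted p = 6.69e-25). Inside the clusters r was 0.388 (permutation p = 0.00226) and 0.30 (permutation p = 1e-05), so the relation held within each. The median of Trim7 was -0.57 in mouse numbers 51 to 89, -0.48 in 291 to 330 and 0.46 in 331 to 362, and the slope outside numbers 51 to 90 and 271 to 310 was 0.14 (adjusted p = 0.000211).

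Pairs of members ran both together and apart. Over 2556 pairs r lay between -0.355 at the 5th percentile and 0.409 at the 95th, around a median of 0.0029, and the median absolute r was 0.144. There were 62 pairs at 0.5 or more and 19 at -0.5 or less. The closest pair was Fbxl17 and Fbxo28 (r = 0.813), followed by Fbxo28 and Fbxo8 (0.737), Fbxo2 and Trim38 (0.717), Trim14 and Trim40 (0.707) and Fbxw8 and Trim42 (0.699). Fbxo2 and Trim2 were the most opposed (r = -0.670). Permutation p-values of these pairs are not given, since the pairs were picked by r from all pairs. Their r values also depend on variation shared by the arrays. With 5 components removed, Fbxl17 and Fbxo28 stood at 0.240 and Fbxo2 and Trim2 at 0.0004, while Fbxw8 and Trim42 kept 0.510.

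Neighbouring members had a median r of 0.126 over the 21 pairs within 1 Mb of each other. On chromosome 7, where the Trim30 cluster lies, Trim30d correlated with Trim34a at 0.631 and with Trim30a at 0.604, and Trim30a with Trim34a at 0.481, while Trim6 in the same stretch stood between -0.202 and 0.088 with its neighbours. These genes are close relatives, and probe sequences were not analysed here, so signal of one on the probe of another cannot be told apart from a level of its own. The values of Trim34a fell into a lower cluster of 262 mice and a higher one of 23, and its r inside them was not computed. On chromosome 17, Trim40 and Trim10 correlated at 0.631. On chromosome 3, Trim2 and Fbxw7 lie within that distance and ran in opposite directions (r = -0.560), as they did along Cebpd and the fasting score.

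**Figure D4:**
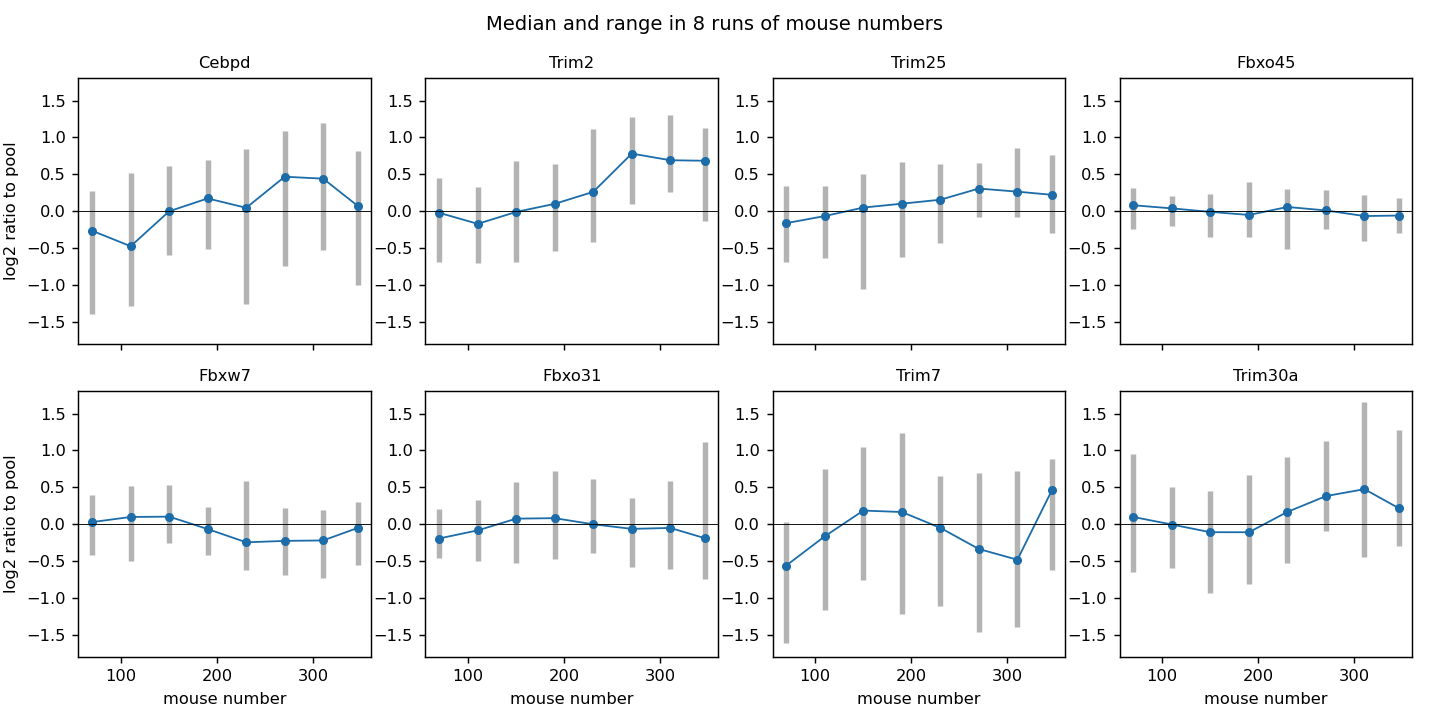
Median (points) and range (bars) of the log2 ratio to the pool in 8 successive runs of mouse numbers with 30 to 39 mice each, for Cebpd and 7 members. The medians of Trim2 climb to 0.78 in numbers 251 to 290, those of Fbxo45 stay between -0.07 and 0.08, and Trim7 swings from -0.57 to 0.46.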

How the data were processed

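The authors deposited 1 table of 23560 probes by 285 mice; its unit is not stated in the sources used here, and each deposited value was taken for the log10 of mouse over pool and converted to log2. For the Y-linked gene Eif2s3y the mean linear ratio was 0.796 as read and 23.2 with the sign turned, and near 1 is what a pool of all mice gives. Read in another base, log2 values and slopes would change by 1 factor; r and p would not, and turning every sign would leave slopes between genes as they are. Array medians lay between -0.0221 and 0.0173 on the deposited scale, so arrays had been centred before deposit by steps not given in the sources used here. Spot intensities, backgrounds and probe sequences were not analysed here.

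Probes with a value on 80% of arrays were kept (23510), missing values (0.00181%) were set to the probe mean, and probes were named by the platform's gene table, updated through Entrez numbers (12650 probes; 9859 had no symbol and 48 several). Probes of a gene were averaged, giving 11715 named features, 10817 of them mouse genes, and 9890 unnamed probes. Slopes were fitted with limma 3.58.1 in R 4.3.3 on all features, predictors in SD, and adjusted by Benjamini-Hochberg over all 21604 or fewer features; the predictor's own genes were left out. Clusters were sought with mclust 6.1.1 (gain in BIC over 10, means over 3 SD apart, at least 5% of mice each). Permutation tests were two-sided over mice, 63 relations in all, with the pairs picked by r among them. The fitting code was checked by adding known slopes along shuffled Cebpd values to features cleared of that predictor. This checks the code only, since shuffled Cebpd has no trend along the mouse number. The mice are separate animals, but tests treat them as exchangeable although values ran along the mouse number.

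Named were members called along Cebpd with an absolute r of at least 0.3, the listed muscle genes, the 8 members of largest SD, the 5 strongest in each direction along each other predictor, and partner genes called along Cebpd with that r. Other genes of a list, pairs, and promoters were named after their values were seen. The members and lists were chosen with earlier results of these data known. A planned score of Fbxo32 and Trim63 could not be formed, since neither was among the named features used here. The alternatives were another probe rule, 2 array scalings, ranks, covariates and subsets of mice.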

Additional observations from a re-analysis of the deposited data

How the results depend on the processing

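No paired analysis was possible because the mice form 1 group. Depth is unknown for these ratios, and signal over background was not analysed here. The slopes along the Fbxo32 and Trim63 mean were not run. Settings were fixed with earlier results known, except the Cebpd probe of smaller SD and the settings for pairs, chosen after seeing the data. Of the alternative slopes, 500 kept direction and call, 75 lost the call, 4 gained one and 33 turned in sign; the causes were not tested. Counts of members are given with the share of all features called under the same setting in brackets, which also fell. Along Cebpd, from 45 (52.4%), the count was 14 (21.4%) with the probe of largest SD, 16 (19.1%) with the trend along the mouse number removed, 18 (22.9%) and 13 (19.1%) among the lower- and higher-numbered mice, 17 (28.2%) and 21 (22.1%) with 1 and 5 components as covariates, and 6 (12.5%) with an absolute r of at least 0.3. Along the fasting score it went from 41 (50.2%) to 10 (14.4%) with the trend removed, 18 (28.3%) and 13 (14.2%) among the lower- and higher-numbered mice, 27 (44.7%) and 26 (31.8%) with 1 and 5 components, and 15 (16%) with the r rule. Along the interferon score it went from 44 (56.2%) to 17 (9.79%) among the higher-numbered mice, 24 (16.5%) and 13 (10.9%) with 1 and 5 components, and 10 (15.3%) with the r rule. Along the macrophage score it went from 32 (47.6%) to 21 (26.5%) with 5 components and 8 (10.1%) with the r rule, and along the slow fibre score from 24 (31.2%) to 14 (14.2%) with mice 51 to 90 and 271 to 310 left out, 7 (12.6%) among the higher-numbered mice, and 1 (5.65%) with the r rule.

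Slopes that turned in sign along Cebpd, with 1 and 5 components, were those of Fbxo28 (-0.0061 and -0.0037), Trim32 (-0.0022 and -0.027), Trim30a (-0.019 and -0.056) and Fbxw2 (0.035 and 0.17); with 5 components Fbxw7 (0.024), and with 1 Trim72 (0.0052). Among the lower-numbered mice Trim30a (-0.0038), Trim30d (-0.013) and Fbxw2 (0.0078) turned, among the higher-numbered Fbxw2 (0.060), without the trend Fbxw2 (0.010) and Trim72 (0.0017), and with the Cebpd probe of smaller SD Trim54 (-0.023). Along the fasting score the lower-numbered mice turned Fbxo2 (0.019), Trim38 (0.0061), Fbxw2 (0.021), Trim30a (-0.0077), Trim7 (0.0068) and Trim30d (-0.035), the higher-numbered mice Fbxw2 (0.062) and Trim32 (-0.0032), and the removed trend Trim32 (-0.012). Trim30a turned with 1 component (-0.0004), and Fbxo2 (0.020), Fbxo28 (-0.0002), Fbxw2 (0.19) and Trim32 (-0.037) with 5. With 5 components Trim40 turned along the interferon score (0.0099) and Trim10 along the macrophage score (0.0047), and the r of Trim2 was 0.0004 with Fbxo2 and 0.065 with Trim38.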
